A study of Rattus norvegicus with 97 samples.

Results

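The genes described here are Creb1, Crem and Sik1, a transcription factor, its close relative and a kinase that act on the same cyclic AMP signal. All probe sets that the platform annotation pairs with these 3 symbols were taken, which gave 12 of the 31042 probe sets tested and 3 of the 14217 genes with a symbol. Creb1 had 4 probe sets, Crem had 6 and Sik1 had 2. The genes were chosen by the Sik1 difference between P and NP rats and the Creb1 difference between AA and ANA rats, so that all values of the 3 genes in those comparisons are given as a description, with no test. They were tested in the other 3 line pairs.

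The tissue was the nucleus accumbens shell, a region of the ventral striatum with a role in reward, and its RNA was measured on 97 Affymetrix rat arrays, 1 per animal. The rats came from 5 pairs of lines, written P/NP, HAD1/LAD1, HAD2/LAD2, AA/ANA and sP/sNP, in which the line named first was bred to take alcohol and the other to avoid it. Lines had 10 arrays, but only 9 for LAD1, for sP and for sNP. The labels used here give no age, sex or alcohol exposure, and each comparison sets 1 line against 1 line, so that a difference belongs to these lines and cannot be told apart from other ways in which the lines differ. Values are log2 RMA signals, in which a difference of 1 is a doubling, and every difference is the preferring line minus the non-preferring line, followed by its standard error.

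Creb1 binds the cyclic AMP response element (CRE) in the promoters of many genes and, once phosphorylated by protein kinase A or by calcium-dependent kinases, recruits coactivators that start transcription. Crem, built like Creb1, gives activator and repressor proteins from the same gene, and its short repressor ICER is made from an internal promoter that CREB itself switches on. Sik1 is a kinase that keeps the CRTC coactivators out of the nucleus, and its own transcription rises with cyclic AMP, so that it acts as a brake in a feedback loop. In the nucleus accumbens CREB is known to act on opioid peptide genes and on the response to rewarding drugs.

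The promoters of Crem and Sik1 are shown because this feedback is known to run through CREs. Whether the letters marked below are the sites it uses was not tested. RefSeq's table on build GRCr8 holds 3 start sites for Crem, 2 for Creb1 and 1 for Sik1, and the 250 bases before each were searched for the full CRE, TGACGTCA, and for TGACG, which the full CRE contains on both strands. Capitals mark the letters found, and each stretch runs 5′ to 3′ in the direction of the gene.
Crem start site 2, chr17:58984697-58984776, plus strand: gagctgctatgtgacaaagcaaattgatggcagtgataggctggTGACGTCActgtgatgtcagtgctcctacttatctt
Crem start site 3, chr17:58985410-58985489, plus strand: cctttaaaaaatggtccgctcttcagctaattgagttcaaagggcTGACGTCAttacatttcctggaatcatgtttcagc
Sik1 start site 1, chr20:9958787-9958866, minus strand: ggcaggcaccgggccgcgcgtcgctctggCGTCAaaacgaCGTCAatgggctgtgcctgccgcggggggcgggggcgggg

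The full CRE began 56 bases before Crem start site 2 and 35 bases before start site 3. Of 33469 upstream windows of the same length, 1.59% held it. The Sik1 window held CGTCA, the reverse complement of TGACG, at 191 and at 180 bases before the start. Creb1 start site 1 had TGACG on either strand at 80 and 59 bases before it, and Crem start site 1 at 241 and 6 bases before it. Creb1 start site 2 had none. TGACG on either strand stood in 18.2% of all windows. A match is a match of letters, and the table does not say which Crem start gives which protein. No probe sequences were used here, so it is not known which transcripts of a gene each probe set reads.

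Before the results, 8 arrays must be named, because they lay away from their own line on a label score. This score places an array between the line medians, from 0 (non-preferring) to 1 (preferring), over the 50 probe sets that best parted the pair's other arrays, with the probe sets of the 3 genes left out. The arrays labelled P 9 (0.398), NP 9 (1.05), HAD1 28 (0.0188), LAD1 37 (0.982), AA 19 (0.058), ANA 20 (0.907), sP 4 (0.39) and sNP 4 (0.493) were more than 0.3 from the end on their label. They are called departing arrays and kept their labels. Values without them stand beside the results below that turn on their pairs. HAD2 and LAD2 had none. The tissue label fitted the markers: 9 medium spiny neuron markers had a median level at the 95th percentile of all probe sets, and 3 cortex markers at percentile 15.4. The spiny neuron marker index, the mean of these markers minus the mean of 7 markers of the neighbouring pallidum, septum and basal forebrain, was under 1 on 5 arrays: P 5 (-0.906), P 9 (0.598), sP 2 (0.791), sP 5 (0.448) and sP 9 (0.862). Pair medians of this index ran from 3.57 to 4.24.

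Sik1 had the widest line difference of the 3 genes, in P against NP rats and on 1 of its 2 probe sets. On probe set 1368597_at the P arrays ran from 7.52 through a median of 8.66 to 9.13, and the NP arrays from 5.49 through 5.90 to 8.02. The lowest P array was P 9 and the highest NP array was NP 9, and every other P array lay above every other NP array. The line means were 8.55 ± 0.50 (SD, n = 10) in P and 6.10 ± 0.73 (SD, n = 10) in NP, a difference of 2.45 ± 0.261, or 5.45-fold. Without P 9 and NP 9 the lowest P array was at 8.11, the highest NP array was at 6.33, and the difference was 2.78 ± 0.145, or 6.85-fold. In that comparison 0.664% of all probe sets had lines that did not overlap. With all arrays 1.05% were called. In tissue RNA of this kind, fewer cells that make a transcript and less of it per cell cannot be told apart.

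The other Sik1 probe set, 1368596_at, was level between these lines. P arrays ran from 7.98 through 8.28 to 8.76 and NP arrays from 8.10 through 8.34 to 8.57. The difference was 0.02 ± 0.083, with a 95% confidence interval from -0.15 to 0.19, and 0.06 without P 9 and NP 9. The probe sets of Sik1 thus gave unlike line differences in the same animals.

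**Figure D1:**
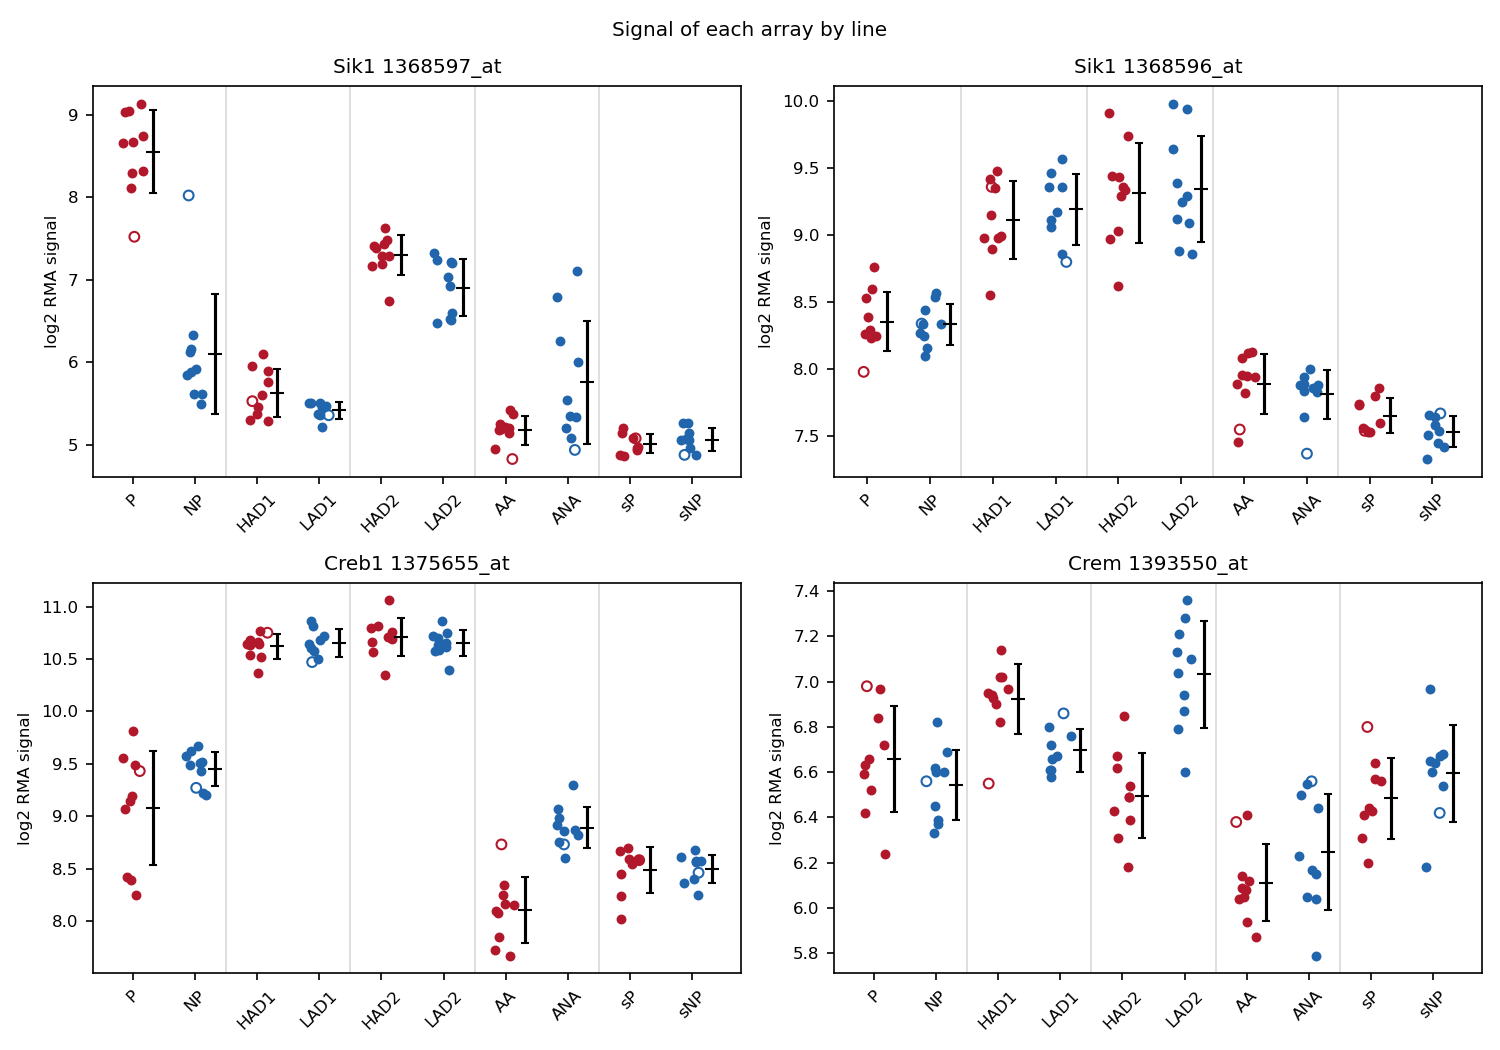
Log2 RMA signal of each array in the 10 lines for both Sik1 probe sets, Creb1 1375655_at and Crem 1393550_at; preferring lines are red, non-preferring lines blue, open circles are the 8 departing arrays, and black marks show mean ± SD. P arrays of Sik1 1368597_at lie above NP apart from P 9 and NP 9, and the same animals overlap on 1368596_at.

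Sik1 1368597_at also spread widely within some lines. ANA arrays ran from 4.94 through 5.44 to 7.10, with an SD of 0.75, and AA arrays from 4.83 through 5.19 to 5.42. Of the 10 ANA arrays 5 lay above every AA array, and the others lay among them. The AA minus ANA difference was -0.58 ± 0.224, and -0.64 without AA 19 and ANA 20. On 1368596_at it was 0.08 ± 0.089.

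In HAD2/LAD2 the same Sik1 probe set was higher in the preferring line by less than the test required. HAD2 arrays ran from 6.74 through 7.34 to 7.63 and LAD2 arrays from 6.48 through 6.98 to 7.32, with 5 of the 10 HAD2 arrays above every LAD2 array. The difference was 0.40 ± 0.123 with a 95% confidence interval from 0.14 to 0.65, and it missed the threshold of 0.05 (limma, adjusted p = 0.0725). Of 20 fits that each left out 1 array it passed in 3: without HAD2 6, the lowest HAD2 array (0.46, adjusted p = 0.0214), without LAD2 14 (adjusted p = 0.0494) or without LAD2 17 (adjusted p = 0.0395). In the rest it was not called, with adjusted p up to 0.136. In HAD1/LAD1 the difference was 0.21 ± 0.096 (adjusted p = 0.479), and 0.21 ± 0.105 without HAD1 28 and LAD1 37 (adjusted p = 0.423), with HAD1 arrays from 5.29 through 5.56 to 6.10 and LAD1 arrays from 5.22 through 5.46 to 5.51. In sP/sNP it was -0.05 ± 0.061 (adjusted p = 0.634), and -0.08 ± 0.064 without sP 4 and sNP 4 (adjusted p = 0.424), and both lines lay between 4.87 and 5.26. The pair mean of this probe set was 5.04 in sP/sNP and 5.52 in HAD1/LAD1, against 7.10 in HAD2/LAD2. Without detection calls it cannot be told whether it measured Sik1 transcript at the lower levels.

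Probe set 1368596_at did not pass the test in any of the 3 tested pairs. Its differences were -0.08 ± 0.119 in HAD1/LAD1 (limma, adjusted p = 0.932), -0.03 ± 0.159 in HAD2/LAD2 (adjusted p = 0.973) and 0.12 ± 0.059 in sP/sNP (adjusted p = 0.167). Without the departing arrays they were -0.16 ± 0.119 in HAD1/LAD1 (adjusted p = 0.704) and 0.15 ± 0.062 in sP/sNP (adjusted p = 0.0977). The gap between both Sik1 probe sets was tested on its own, as the per-array difference between them, by limma with p-values adjusted over the 9597 gaps between probe sets of the same gene on the array, and by an exact two-sided permutation test with an unadjusted p. The line difference of 1368596_at minus 1368597_at was -0.29 in HAD1/LAD1 (limma, adjusted p = 0.432; exact p = 0.0522), -0.43 in HAD2/LAD2 (0.111; exact p = 0.00667) and 0.17 in sP/sNP (0.249; exact p = 0.0622). Without the departing arrays it was -0.37 in HAD1/LAD1 (limma, adjusted p = 0.165; exact p = 0.0218) and 0.24 in sP/sNP (0.0899; exact p = 0.0124). None of these passed over all gaps, and the sign in sP/sNP was opposite to that in both HAD pairs. Across all 97 arrays, after the line means were subtracted, the Sik1 probe sets correlated at r = 0.30, and at 0.27 over the 89 arrays left without the departing ones.

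Creb1, the CRE-binding activator, was lower in AA than in ANA rats on 1 of its 4 probe sets. On 1375655_at the AA arrays ran from 7.67 through 8.12 to 8.73 and the ANA arrays from 8.60 through 8.87 to 9.30. The highest AA array was AA 19, and the remaining AA arrays reached no higher than 8.34, below every ANA array. The means were 8.10 ± 0.31 (SD, n = 10) and 8.89 ± 0.20 (SD, n = 10), a difference of -0.79 ± 0.110, or 1.72-fold lower in AA. Without AA 19 and ANA 20 it was -0.87 ± 0.097, or 1.83-fold lower, and 378 of the 31042 probe sets then had lines that did not overlap. The share of all probe sets called in AA/ANA was 2.35% with all arrays and 4.44% without these. Within the lines of this pair, 1375655_at correlated at -0.63 with the spiny neuron marker index, whose line means were 4.09 ± 1.08 (SD, n = 10) in AA and 4.01 ± 0.79 (SD, n = 10) in ANA. With this index in the model the difference was -0.77 ± 0.088.

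The other 3 Creb1 probe sets were level in the same animals. Their AA minus ANA differences were -0.03 ± 0.108 for 1369708_a_at, -0.01 ± 0.049 for 1371291_at and -0.02 ± 0.087 for 1377913_at. All 3 were dim, at percentiles 9.53, 0.226 and 11.4 of mean signal among the tested probe sets, whereas 1375655_at was at percentile 70.9. The file holds no detection calls, and whether the dim probe sets measured Creb1 transcript at all cannot be told from it.

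In P/NP Creb1 1375655_at was -0.38 ± 0.170, with NP arrays close together from 9.20 through 9.50 to 9.67 and P arrays spread from 8.25 through 9.16 to 9.81. Of the 10 P arrays 6 lay below every NP array and 1 above. The SD was 0.54 in P and 0.17 in NP. In the tested pairs this probe set was at -0.03 ± 0.058 in HAD1/LAD1 (limma, adjusted p = 0.948), 0.06 ± 0.069 in HAD2/LAD2 (adjusted p = 0.807) and -0.01 ± 0.082 in sP/sNP (adjusted p = 0.945). The 95% confidence intervals ran from -0.15 to 0.09, from -0.08 to 0.21 and from -0.18 to 0.16. Without the departing arrays the differences were -0.07 ± 0.059 in HAD1/LAD1 and -0.03 ± 0.091 in sP/sNP.

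Another Creb1 probe set, 1377913_at, fell in sP against sNP rats by a small amount. The sP arrays ran from 4.78 through 4.88 to 5.09 and the sNP arrays from 4.93 through 5.08 to 5.26. The difference was -0.18 ± 0.055 (limma, adjusted p = 0.0421), in a pair in which 12.9% of all probe sets were called. Without sP 4 and sNP 4 it was -0.16 ± 0.060 (adjusted p = 0.0787), where 15% of all probe sets were called, and the call was also lost when any 1 of 12 of the 18 arrays was left out. In a model that held the spiny neuron marker index it was -0.14 ± 0.067 (adjusted p = 0.712), and with the Gapdh 3′ minus 5′ difference -0.16 ± 0.057 (adjusted p = 0.105). Creb1 1371291_at stood at 0.07 ± 0.040 in this pair and was not called (adjusted p = 0.214). Both are among the dim Creb1 probe sets, and whether they measured Creb1 transcript cannot be told. The gap between these 2 probe sets differed between the lines (0.25 ± 0.071, limma, adjusted p = 0.0456 over all gaps, of which 4.85% were called; exact p = 0.00321). Without sP 4 and sNP 4 this gap was 0.23 ± 0.076 and was not called (limma, adjusted p = 0.0694).

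**Figure D2:**
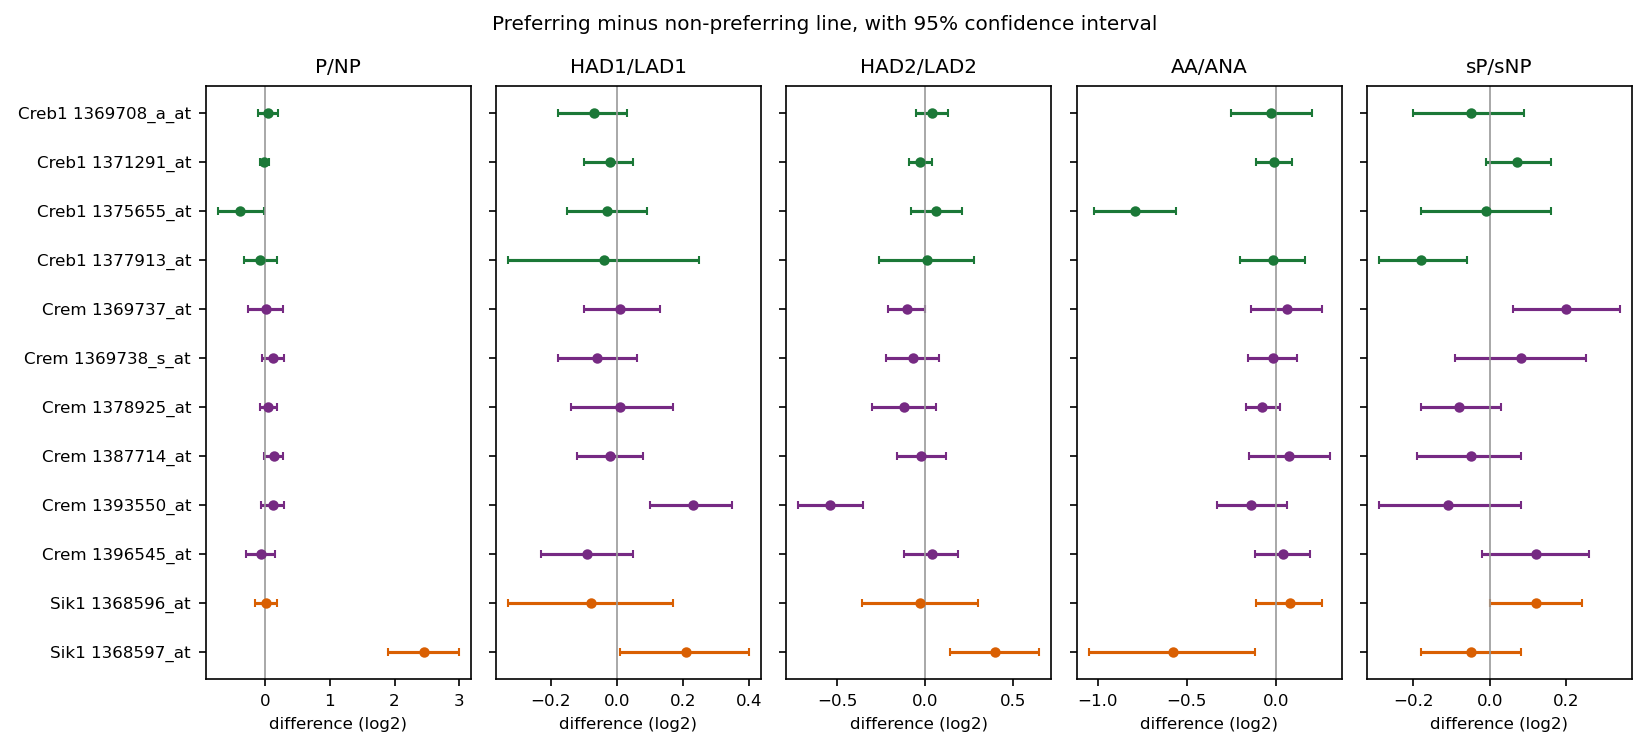
Difference between preferring and non-preferring line (log2) for the 12 probe sets in each of the 5 pairs, with 95% confidence intervals from limma; the horizontal scale differs between panels. Sik1 1368597_at in P/NP (2.45), Creb1 1375655_at in AA/ANA (-0.79) and Crem 1393550_at in HAD2/LAD2 (-0.54) stand away from the other probe sets of their gene.

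Crem fell in HAD2 against LAD2 rats on 1 of its 6 probe sets, and the same probe set leaned the other way in HAD1/LAD1. On 1393550_at the HAD2 arrays ran from 6.18 through 6.49 to 6.85 and the LAD2 arrays from 6.60 through 7.07 to 7.36. Of the 10 HAD2 arrays 7 lay below every LAD2 array, and 8 LAD2 arrays lay above every HAD2 array. The means were 6.50 ± 0.19 (SD, n = 10) and 7.03 ± 0.24 (SD, n = 10), a difference of -0.54 ± 0.091, or 1.45-fold lower in HAD2 (limma, adjusted p = 0.000512). It was the only call among the 12 probe sets in a pair in which 4.6% of all probe sets were called. An unadjusted p under 0.05 was found for 2 of the 12, against 14% of all probe sets.

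In HAD1/LAD1 the arrays of 1393550_at ran from 6.55 through 6.95 to 7.14 in HAD1 and from 6.58 through 6.67 to 6.86 in LAD1. The lowest HAD1 array was HAD1 28 and the highest LAD1 array was LAD1 37, which are the departing arrays of this pair. With all arrays the difference was 0.23 ± 0.060 and missed the threshold (limma, adjusted p = 0.0721). Without HAD1 28 it was 0.27 (adjusted p = 0.00296), without LAD1 37 it was 0.25 (adjusted p = 0.0287), and without both it was 0.29 ± 0.047 (adjusted p = 0.000664), among 3.98% of all probe sets called. The lowest HAD1 array was then at 6.82 and the highest LAD1 array at 6.80, which is no overlap, as for 1.12% of all probe sets. With all arrays limma called none of the 12 probe sets in HAD1/LAD1, where 1.2% of all probe sets were called. An unadjusted p under 0.05 was found for 2 of the 12, against 9.89% of all probe sets.

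The HAD and LAD lines are repeat selections from the same founder stock, and the direct test asked whether Crem 1393550_at differed between these repeats. The HAD1/LAD1 difference minus the HAD2/LAD2 difference was 0.763 ± 0.117 (limma, adjusted p = 4.76e-06), and 0.825 ± 0.113 without the departing arrays (adjusted p = 3.33e-07). In this test 3.37% of all probe sets were called, and 4.21% without these arrays. The 2 pairs also differed in the Gapdh 3′ minus 5′ difference, with medians of 4.69 in HAD1/LAD1 and 2.88 in HAD2/LAD2. Its part in the result was not tested. Against sP/sNP, where the difference was -0.11 ± 0.089 (adjusted p = 0.453), the HAD2/LAD2 difference minus the sP/sNP difference was -0.43 (adjusted p = 0.00817), among 16.9% of all probe sets called. Without the departing arrays of the 3 tested pairs, which shared 1 fit, it was -0.37 (adjusted p = 0.0182), among 19.2%. In P/NP and AA/ANA 1393550_at stood at 0.12 ± 0.086 and -0.14 ± 0.093.

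The other Crem probe sets did not share the HAD2/LAD2 difference. They stood at -0.10 ± 0.051 (1369737_at), -0.07 ± 0.073 (1369738_s_at), -0.12 ± 0.089 (1378925_at), -0.02 ± 0.066 (1387714_at) and 0.04 ± 0.076 (1396545_at), with adjusted p between 0.393 and 0.96. The gap between 1393550_at and each of these 5 differed between HAD2 and LAD2, by 0.41 to 0.57 (limma, adjusted p from 0.00284 to 0.0424 over all gaps, of which 3.94% were called). These were the 5 called of the 15 Crem gaps in this pair, so that they repeat the difference of 1393550_at itself. In HAD1/LAD1 limma called none of the 15 with all arrays (1.06% of all gaps were called; 5 of the 15 had an exact p under 0.05). Without HAD1 28 and LAD1 37 it called the gap of 1393550_at to 4 of the 5, by 0.26 to 0.36 in the opposite direction (limma, adjusted p from 0.0126 to 0.0377, among 4.02% of all gaps called).

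Markers of other cell types moved between HAD2 and LAD2 as well. In this pair 4.47% of all genes were called. Of 5 measured oligodendrocyte markers 3 were called lower in HAD2 by limma, namely Mbp (-0.28, adjusted p = 0.00463), Mobp (-0.30, adjusted p = 0.0162) and Opalin (-0.50, adjusted p = 0.0204). The mean level over the 5 ran from 11.75 to 12.09 in HAD2 and from 11.94 to 12.57 in LAD2. Of 6 endothelial and mural markers 4 were called, with Cldn5 and Vwf lower and Myh11 and Tagln higher, and the mean over the 6 ran from 8.46 to 9.02 in HAD2 and from 8.50 to 8.79 in LAD2. Cx3cr1, 1 of 6 microglia markers, and Slc5a7, 1 of 7 pallidal and septal markers, were called lower. No spiny neuron, astrocyte or cortex marker was called there. The part of these markers in the Crem difference was not tested.

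In sP/sNP Crem 1369737_at lay just short of a call. The sP arrays ran from 6.58 through 6.83 to 6.97 and the sNP arrays from 6.43 through 6.58 to 6.87. The difference was 0.20 ± 0.066 (limma, adjusted p = 0.0526), in a pair in which 12.9% of all probe sets were called. It fell under 0.05 without sNP 2 (adjusted p = 0.0307), without sP 3 (0.024) or without sP 6 (0.0331), and was 0.0718 without sP 4 and sNP 4. This difference was higher than that of the same probe set in HAD2/LAD2, which minus the sP/sNP difference gave -0.30 (adjusted p = 0.00628), among 16.9% of all probe sets called. Its gaps to 1378925_at and 1387714_at also differed between sP and sNP, by 0.28 (limma, adjusted p = 0.0177 over all gaps) and 0.25 (adjusted p = 0.0206), among 4.85% of all gaps called. Without sP 4 and sNP 4 these gaps were 0.28 (adjusted p = 0.0289) and 0.26 (adjusted p = 0.0286), among 6.38% of all gaps called. Within the lines of this pair 1369737_at correlated at -0.31 with the spiny neuron marker index, whose line means were 2.48 in sP and 4.11 in sNP. The part of this index in the gaps was not tested.

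Probe sets of the same gene seldom rose and fell together from animal to animal. With line means subtracted, over 97 arrays, the 6 combinations of Creb1 probe sets had r from -0.03 to 0.12 and the 15 of Crem from -0.13 to 0.41. The highest was between Crem 1369738_s_at and 1387714_at. Signs of the 5 line differences matched in all pairs for 1 combination of Creb1, 1375655_at with 1377913_at, and for 1 of Crem, 1378925_at with 1393550_at. Between genes r ran from -0.30 to 0.30 for the 24 combinations of Creb1 with Crem, from -0.21 to 0.16 for the 8 of Creb1 with Sik1 and from -0.26 to 0.22 for the 12 of Crem with Sik1. The highest of the first range lay above every r among the Creb1 probe sets. Arrays share library preparation and quality, which also enter these values.

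For Sik1 1368597_at the order from high to low was P, HAD2, LAD2, NP, ANA, HAD1, LAD1, AA, sNP and sP, over a range of line means of 3.54. From NP to LAD1, and from AA to sP, neighbours in this order differed by no more than their SD. For Sik1 1368596_at the order was LAD2, HAD2, LAD1, HAD1, P, NP, AA, ANA, sP and sNP, over 1.81, and 7 of 9 neighbours lay within their SD. Creb1 1375655_at ran from HAD2 at 10.71 down to AA at 8.10, with the 4 HAD and LAD lines between 10.62 and 10.71.

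The Crem probe sets took opposite orders over the lines. Levels of 1369737_at were 7.07 in P and 7.06 in NP, against 4.80 in LAD1 and 4.81 in HAD1, whereas 1378925_at was highest in HAD1 at 10.09 and lowest in sP at 9.25. Over the 10 line means these 2 probe sets correlated at -0.94, and 1369737_at with 1369738_s_at at 0.97. The line pairs also differed in the Gapdh 3′ minus 5′ control difference, a measure of how far labelling reached along the transcript, with pair medians of 0.12 in P/NP, 4.69 in HAD1/LAD1, 2.88 in HAD2/LAD2, 0.05 in AA/ANA and 0.43 in sP/sNP. The means of 29.3% of all probe sets spanned over 1 log2 unit between pairs. Level differences between pairs and the handling of the pairs cannot be told apart, and no such level was tested.

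The genes most like Sik1 1368597_at over the 10 line means were Oxt, the oxytocin precursor (r = 0.953), Tspan18 (0.931) and Kdm2a (0.930). For Sik1 1368596_at they were Ptk7 (0.997), Mrm1 (0.996) and Bex3 (0.996), and for Creb1 1375655_at Peg12 (0.988), Plekhm3 (0.986) and Mcmbp (0.986). For Crem 1393550_at they were Gtf3c6 (0.965), Me2 (0.938) and Sypl1 (0.926). Within lines, over 97 arrays, those most like Sik1 1368596_at were Myh9 (0.675), Nr4a3 (0.647, on a probe set other than the one in the target list) and Higd1a (0.625), and those most like Sik1 1368597_at were Tiparp (0.474), Nrarp (0.459) and Gtpbp2 (0.421). Creb1 1375655_at was most like Zfp68 (0.546) and Crem 1393550_at most like Eef1e1 (0.433). These are the highest values among all probe sets with 1 symbol, and so a description only.

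Some CREB target genes moved with Sik1 1368596_at from animal to animal. With line means subtracted, over 97 arrays, 1368596_at had r = 0.58 with Nr4a1, an immediate early nuclear receptor, 0.48 with the phosphatase gene Dusp1 and 0.45 with each of Fos, Egr2 and Arc. The lowest was -0.29, with Crh. Over the 29 measured targets the median was 0.21, against -0.00 over all genes, and 7 targets were at 0.40 or above, as were 2.63% of all genes. For 1368597_at the median was 0.08, the highest was 0.25 with Nr4a1 and the lowest was -0.20 with Crh. Without the departing arrays 5 targets were at 0.40 or above with 1368596_at, against 2.74% of all genes. Nr4a1 was then at 0.54 with 1368596_at and 0.14 with 1368597_at, and without the 2 arrays farthest from the median at 0.56 and 0.23.

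The relation of 1368596_at with the targets did not hold in every pair. With Nr4a1 it was 0.62 in P/NP, 0.75 in HAD1/LAD1, 0.76 in HAD2/LAD2, 0.62 in AA/ANA and -0.08 in sP/sNP. The median over the targets was 0.12, 0.32, 0.49, 0.43 and -0.30 in the same order. The spiny neuron marker index also moved with this probe set, at r = 0.46 in AA/ANA and -0.49 in sP/sNP, and its part in these values was not tested.

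**Figure D3:**
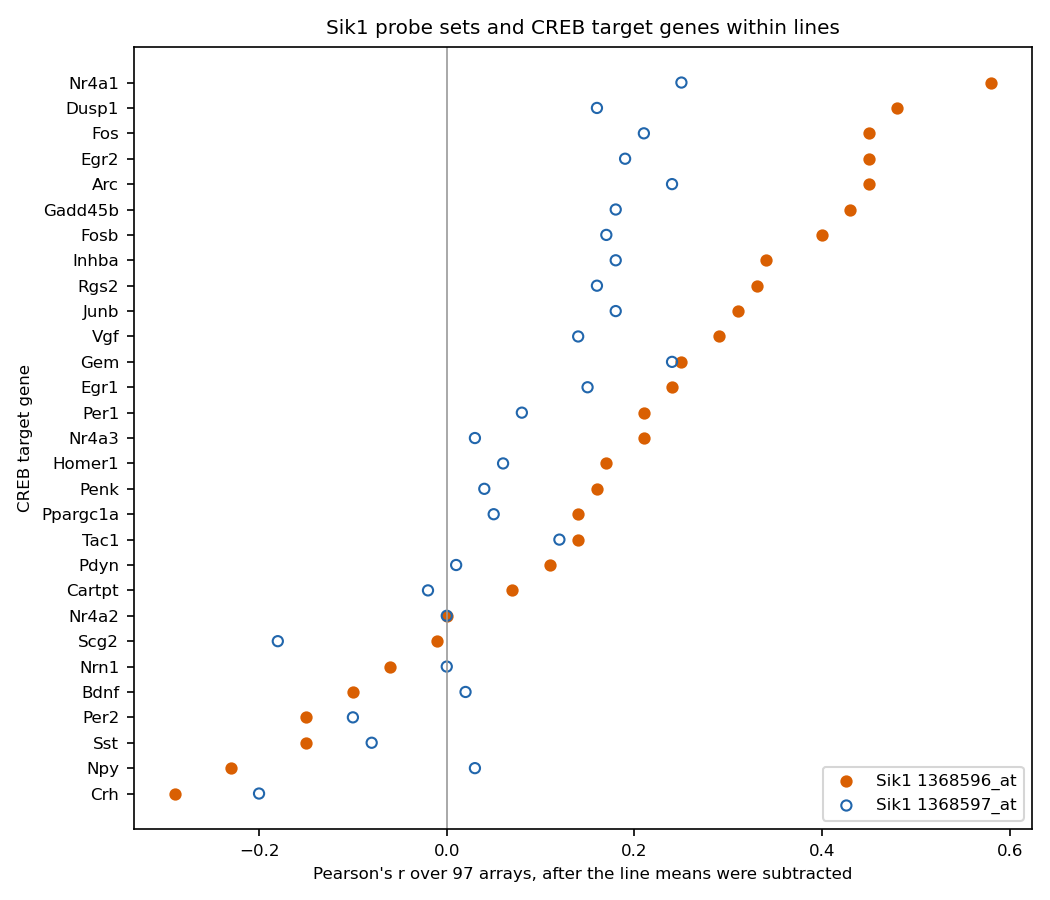
Pearson's r, over 97 arrays after line means were subtracted, of the 29 measured CREB target genes with Sik1 1368596_at (filled) and Sik1 1368597_at (open). Nr4a1 is highest for both, at 0.58 and 0.25, and Crh is lowest for both, at -0.29 and -0.20.

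With Crem 1396545_at the targets had a median r of -0.28 over the 29, against -0.01 over all genes. At -0.40 or below were 11 of them and 4.76% of all genes, and without the departing arrays 4 of them and 3.66% of all genes. Pdyn, the dynorphin precursor, and Homer1 were lowest, both at -0.47, and Crh was highest at 0.45. The medians for Crem 1396545_at were -0.50 in P/NP, -0.03 in HAD1/LAD1, -0.12 in HAD2/LAD2, -0.36 in AA/ANA and -0.20 in sP/sNP. This probe set correlated at -0.47 with the spiny neuron marker index, of whose genes Penk and Tac1 are also targets on the list. Crem 1369737_at was highest with Crh at 0.47 and lowest with Per1 at -0.50. Crem 1393550_at, the probe set called in HAD2/LAD2, stayed between -0.17 and 0.20.

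The rest of the pathway was followed in 5 lists with 82 genes, of which 75 were measured, with 1 probe set per gene. They hold the CREB/ATF family, coactivators, upstream activators, brakes such as phosphodiesterases and phosphatases, and CREB targets. The lists were chosen with earlier results of these data known, so that their counts in all pairs are a description, with no set test. In P/NP 3 of the 75 were called, against 0.935% of all genes. Creb3l1, a membrane-bound relative of CREB, was higher (0.21, limma, adjusted p = 0.0213), as was the small GTPase gene Gem, a CREB target (0.59, adjusted p = 0.00726). Camkk2, a kinase upstream of CaMKIV, was lower (-1.38, adjusted p = 0.0456), on 1 of its 2 probe sets. The median of the lists was -0.023, against 0.001 over all genes.

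Few pathway genes were called in the HAD and AA pairs. In HAD1/LAD1 limma called 0 of 75, against 0.95% of all genes. An unadjusted p under 0.05 was found for 8 of 75, against 9.19% of all genes. Without HAD1 28 and LAD1 37 it called 3, against 3.5% of all genes, all lower: Atf3, a stress-induced family member (-1.54, adjusted p = 0.00129), the neuropeptide gene Sst (-0.98, adjusted p = 0.00665) and Prkar2a, a regulatory subunit of protein kinase A (-0.27, adjusted p = 0.0257). In HAD2/LAD2 2 of 75 were called, against 4.47% of all genes. They were Atf5, lower (-0.20, adjusted p = 0.0221), and Rps6ka5, a kinase that phosphorylates CREB, higher by 0.32 (adjusted p = 0.0285). In AA/ANA limma called 0, against 1.84% of all genes, with 6 at an unadjusted p under 0.05, against 9.28% of all genes. The call of Camkk1 without AA 19 and ANA 20 (0.18, adjusted p = 0.0406) was the only one there, against 3.85% of all genes.

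In sP/sNP 23 of the 75 pathway genes were called, 19 of them lower in sP, against 15.1% of all genes called and 6.39% called lower. Without sP 4 and sNP 4 it was 25, with 21 lower, against 17.7% of all genes. Of the 14 measured upstream activators 4 fell, among them Rps6ka5 (-0.81, limma, adjusted p = 0.0145), Gnal, the striatal stimulatory G protein subunit (-0.51, adjusted p = 0.0307), and Adcy5, the main striatal adenylyl cyclase (-0.85, adjusted p = 0.0348). Of the 13 brakes 5 fell, including Pkig, an inhibitor of protein kinase A (-0.43, adjusted p = 0.022), and the phosphodiesterase gene Pde10a (-1.03, adjusted p = 0.0433). Of the 29 targets 9 fell, such as Arc (-0.72, adjusted p = 0.0204), Inhba (-1.03, adjusted p = 0.0302) and Penk, the enkephalin precursor (-0.79, adjusted p = 0.0358). The targets Ppargc1a (0.59, adjusted p = 0.0304) and Bdnf (0.50, adjusted p = 0.039) rose, as did Crebl2 (0.25, adjusted p = 0.0232) and Atf4 (0.43, adjusted p = 0.037) of the family. The coactivator gene Crtc1, which Sik1 acts on, fell by 0.45 on the log2 scale (adjusted p = 0.0418).

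Markers of spiny neurons, the main cell type here, moved with these genes. Of 9 measured spiny neuron markers 8 were called in sP/sNP and none in the other 4 pairs. All 8 were lower in sP, and the mean level over the 9 ran from 10.03 to 12.36 in sP and from 11.64 to 12.62 in sNP. Of the 7 pallidal and septal markers 2 were called higher, of 6 endothelial and mural markers 3 were called, and 1 each of the astrocyte (Gfap) and oligodendrocyte (Mobp) markers was called higher. The spiny neuron marker index was 2.48 ± 1.48 (SD, n = 9) in sP and 4.11 ± 0.67 (SD, n = 9) in sNP. With this index in the model 0 of the 75 pathway genes and 0.886% of all genes were called in sP/sNP. With the Gapdh 3′ minus 5′ difference in the model 1 was called, against 2.82% of all genes. The median difference of the lists was -0.047 with neither in the model, 0.007 with the index and -0.040 with the Gapdh difference. The lists share Penk, Tac1 and Pde10a with the spiny neuron markers.

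Genes next to the members on the chromosome were checked in RefSeq's gene order, 10 measured genes on each side. Around Sik1 none of 20 was called in P/NP by limma on the 1 probe set used per gene, which is near the share of 0.935% of all genes. Their differences ran from -0.36 to 0.09. Without P 9 and NP 9 Icoslg, the tenth measured gene after Sik1, was called (-0.45, adjusted p = 0.0151), among 1.96% of all genes. Icoslg was higher in AA than in ANA rats (0.64, adjusted p = 0.00941), on 1 of its 2 probe sets. In HAD1/LAD1 Icoslg stood at 0.81 ± 0.232 (adjusted p = 0.103), and at 1.13 without HAD1 28 and LAD1 37 (adjusted p = 1.61e-06). Hsf2bp, the first measured gene after Sik1, was lower in HAD2 than in LAD2 rats (-0.59, adjusted p = 0.00091), where Sik1 1368597_at stood at 0.40.

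Around Creb1 none of 20 neighbours was called in AA/ANA with all arrays on the 1 probe set used per gene, against 1.84% of all genes. Another probe set was called for Plekhm3 (1 of its 2) and for Adam23 (1 of its 3). Nrp2, the ninth before it, was lowest at -0.68 (limma, adjusted p = 0.426). Plekhm3, the third measured gene after Creb1, stood at -0.59 ± 0.159 (limma, adjusted p = 0.0546), and without AA 19 and ANA 20 it fell by 0.72 on the log2 scale (adjusted p = 0.00332). Idh1, the eighth, was then also called (-0.22, adjusted p = 0.0428). Plekhm3 rose in sP/sNP (0.39, adjusted p = 0.0376), where Creb1 1375655_at was level. Around Crem 2 of 20 neighbours were called in HAD2/LAD2, against 4.47% of all genes, namely Cul2, the first measured gene before it (-0.17, adjusted p = 0.0279), and Wac (0.24, adjusted p = 0.0219).

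**Figure D4:**
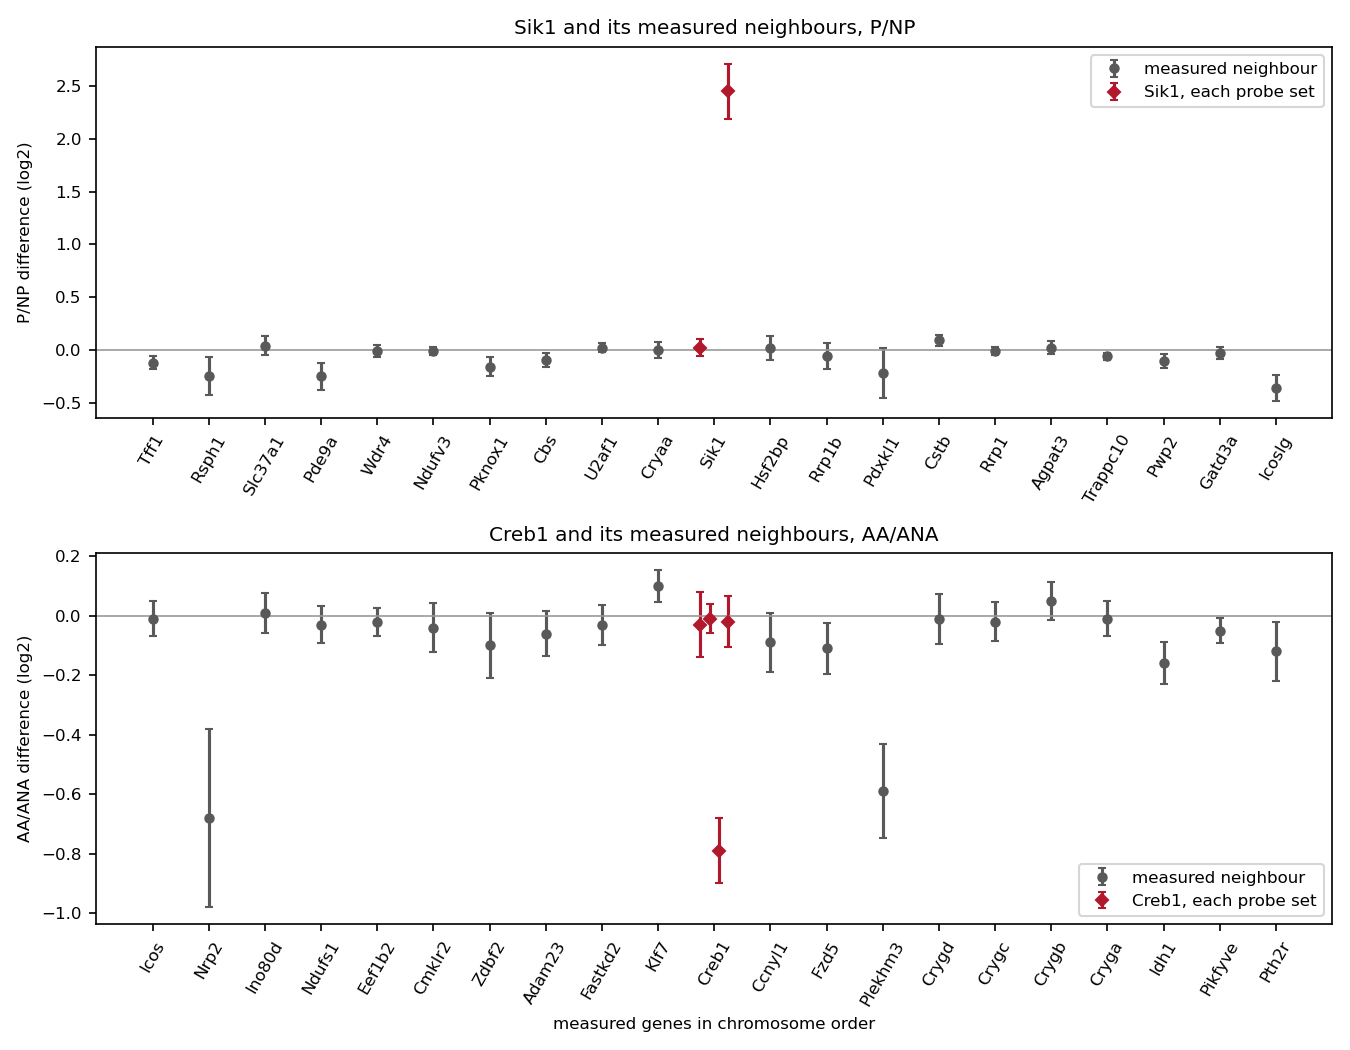
Line difference (log2) ± standard error of the 10 measured genes on each side of Sik1 in P/NP and of Creb1 in AA/ANA, in chromosome order without distances, with each probe set of the member in red. Sik1 1368597_at (2.45) and Creb1 1375655_at (-0.79) lie away from most neighbours, while Nrp2 (-0.68) and Plekhm3 (-0.59) lie nearest to Creb1 in value.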

How the data were processed

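The values are log2 RMA signals as deposited: per the submitters' processing notes the authors summarised the arrays with RMA (version not given in the sources used here), and per the labels' protocols 25 ng of total RNA went through 2 amplification cycles. They were used without further scaling (array medians 7.82 to 8.02; the number of arrays limits precision). No genome build is named for the arrays. Of 31099 probe sets, 57 controls were left out. Gene symbols came from the platform annotation, updated through a table of current rat genes.

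Each pair was fitted with limma 3.58.1 in R 4.3.3 (lmFit, eBayes, two-sided), adjusted by Benjamini and Hochberg over 31042 probe sets and called under 0.05. The script was tested on simulated data. Members and lists were chosen with earlier results of these data known; the limit of 0.3 on the label score, the tests between pairs and the fit over all gaps between probe sets of a gene were also chosen after the data were seen. Named were all member probe sets, called list genes (up to 6 per list) and called neighbours (up to 4 per member), by smallest adjusted p, of which examples are given, and the 3 most alike genes. Numbers shared by P and NP (10) and by sP and sNP (9) were not used as pairs in the main fits. Whether they pair animals is not known. For same-numbered arrays r was over 0.1 for 6 and 5 of them. Its mean was 0.2 in P/NP and 0.13 in sP/sNP, against -0.0209 and -0.0165 for arrays of other numbers.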

Additional observations from a re-analysis of the deposited data

Results flagged for a closer look

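Of 120 groups of 9 or 10 arrays (12 probe sets in 10 lines), 7 held an array set apart from the rest by Dixon's test at the 95% level, and chance gives about 1 in 20. Sik1 1368597_at in NP 9 was at 8.02, with the other NP arrays between 5.49 and 6.33. The same probe set in HAD2 6 was at 6.74, with the others between 7.17 and 7.63. Creb1 1371291_at stood at 4.20 in NP 3, at 4.09 in sP 4 and at 4.32 in sNP 2. Crem 1369738_s_at was at 6.70 in LAD2 16, and Crem 1387714_at was at 5.53 in LAD2 20.

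The test of the difference itself parted line pairs for Crem and Sik1. It called 3.37% of all probe sets for HAD1/LAD1 minus HAD2/LAD2 and 16.9% for HAD2/LAD2 minus sP/sNP. Crem 1393550_at gave 0.76 for HAD1/LAD1 minus HAD2/LAD2 (limma, adjusted p = 4.76e-06) and -0.43 for HAD2/LAD2 minus sP/sNP (adjusted p = 0.00817). For HAD2/LAD2 minus sP/sNP, Crem 1369737_at gave -0.30 (adjusted p = 0.00628) and Sik1 1368597_at gave 0.45 (adjusted p = 0.0245), although neither single difference of that Sik1 probe set passed its own test.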

How the results depend on the processing

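No called member difference changed sign under the alternatives run; differences near 0 of Creb1 1375655_at in sP/sNP and of Sik1 1368596_at in P/NP and HAD2/LAD2, none called, did under some. The differences of Sik1 1368597_at in P/NP and Creb1 1375655_at in AA/ANA, given with no test, moved by less than the SD within lines throughout, from 2.38 to 2.66 and from -0.86 to -0.74 as each array was left out. Leaving out single arrays gave 0.20 to 0.27 for Crem 1393550_at in HAD1/LAD1, 0.35 to 0.46 for Sik1 1368597_at in HAD2/LAD2, -0.20 to -0.15 for Creb1 1377913_at in sP/sNP and 0.18 to 0.23 for Crem 1369737_at in sP/sNP. The number of member probe sets called then ran from 0 to 1 in HAD1/LAD1, from 1 to 2 in HAD2/LAD2 and from 0 to 2 in sP/sNP. Without the departing arrays Crem 1393550_at in HAD1/LAD1 gave 0.29 and was called, so that 1 member was called there, and Creb1 1377913_at in sP/sNP gave -0.16, with 0 called. That probe set also lost its call at -0.18 in 1 fit over all 10 lines, at -0.16 with the Gapdh difference and at -0.14 with the marker index in the model, each leaving 0 called. With the replicate number as a block it gave -0.18 (adjusted p = 0.0509), leaving 0 called in sP/sNP. Whether these numbers pair the animals is not known, and 4 of 10 in P/NP and 2 of 9 in sP/sNP correlated best with their own number. Without the 25% of probe sets with the lowest signal Crem 1369737_at in sP/sNP was called at 0.20. Creb1 1377913_at, at percentile 11.4 of mean signal, was itself among those left out. Subtracting array medians and eBayes with trend changed no call. The cause of these changes was not tested.

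Of the 75 pathway genes, 3 called in P/NP (0.935% of all genes) became 6 with the marker index (3.21%), 1 with the Gapdh difference (0.499%), 2 in 1 fit (2.24%) and 5 with the probe set of largest spread per gene (1.03%). In HAD1/LAD1 0 (0.95%) became 3 without departing arrays (3.5%), 3 in 1 fit (2.05%), 1 with the Gapdh difference (1.19%) and 2 with the largest spread (1.06%). In HAD2/LAD2 2 (4.47%) became 0 in 1 fit (4.9%) and 4 with the largest spread (4.42%), and in AA/ANA 0 (1.84%) became 1 without departing arrays (3.85%) and 1 with the marker index (2.72%). In sP/sNP 23 (15.1%) became 0 with the marker index (0.886%), 1 with the Gapdh difference (2.82%), 19 in 1 fit (12.5%), 25 without departing arrays (17.7%) and 27 with the replicate block (18.9%).

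For the gaps between probe sets, exact permutation tests adjusted over the members' own 66 tests passed 4 Crem gaps in HAD1/LAD1, 3 Crem gaps in sP/sNP and the Sik1 gap in HAD2/LAD2 (1). Limma over the gaps of all genes, added after the data were seen and used in the report, gave 0, 2 and 0. Without departing arrays the exact tests passed 5 Crem gaps and 1 Sik1 gap in sP/sNP.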
